A study of Homo sapiens with 16 samples.

Results

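The autophagy core machinery was followed as 40 genes, chosen by symbol for their roles in building, filling and closing the autophagosome, out of 58051 genes in the count table. Each of the 40 symbols matched 1 gene. The data were RNA-seq counts from LNCaP, an androgen-responsive human prostate cancer cell line, in 4 groups of 4 libraries. In the knockdown experiment cells received either the Allstar control siRNA (siCtrl) or an siRNA directed at XBP1 (siXBP1), and after 2 days received thapsigargin (TG) at 30 nM for 3 h. In the inhibitor experiment cells were given DMSO (Vehicle) or 10 µM MKC8866, a compound that blocks the RNase of IRE1α, for 24 h and then the same TG exposure. TG stops the calcium pump of the endoplasmic reticulum (ER) and so causes ER stress. All 4 groups received it, so every difference below is a difference between stressed cells. The model is 1 cell line and 1 duration of TG, and neither experiment has a group without TG.

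Autophagy encloses cytoplasm in a double membrane, the autophagosome, and delivers it to the lysosome. The ULK kinase complex starts the process, a lipid kinase complex built on Beclin 1 marks the membrane with phosphatidylinositol 3-phosphate, and ATG9A, ATG2 and WIPI proteins bring in lipid. A ubiquitin-like cascade then attaches LC3 and GABARAP proteins to the membrane, where cargo receptors such as p62 (SQSTM1) bind them. IRE1α is an ER stress sensor that splices XBP1 mRNA into the form encoding the transcription factor XBP1s, and ER stress and autophagy are known to be linked through several sensors of the unfolded protein response.

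The 16 libraries held 28713607 to 34509488 counted fragments each (median 30743136). XBP1 itself lay between 359 and 421 CPM (counts scaled to a common library total) in siCtrl and between 51.2 and 54.2 in siXBP1, and between 482 and 539 in Vehicle and 536 and 619 in MKC8866. DNAJB9, an ER chaperone gene and a known XBP1s target, differed by −2.31 on the log2 scale with siXBP1 and by −1.87 with MKC8866. The 6 luminal prostate markers FOLH1, HOXB13, KLK2, KLK3, STEAP2 and TMPRSS2 were detected, and their summed level was 3489 to 3599 CPM in siCtrl, 2574 to 2651 in siXBP1, 3579 to 3641 in Vehicle and 3948 to 4020 in MKC8866. With siXBP1, 4 of the 6 were lower (KLK2, KLK3, TMPRSS2 and STEAP2), and with MKC8866 KLK3 was higher. Whether that shift has a part in the autophagy results was not tested. The 3 leukocyte markers reached at most 3 counts in any library and the 3 basal epithelial markers summed to at most 1.46 CPM. The 4 fibroblast markers summed to 25.2 to 36.8 CPM over all libraries and the 3 endothelial markers to 7.42 to 10.5 CPM. Nearly all of each sum came from 1 gene. COL1A1 had group means of 27.6 to 32.9 CPM, and COL1A2, DCN and LUM at most 0.42. VWF had group means of 8.11 to 9.35 CPM, and PECAM1 and CDH5 at most 0.04. The study describes the libraries of a group as independent samples, but neither it nor the labels say whether they came from separate cultures, so p-values measure the spread between these libraries, which may be technical.

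All 40 members were expressed, with no fewer than 130 counts for any member in any library, and all passed the filter on low counts in every comparison. On a scale that divides by gene length (RPKM, the CPM per kilobase of gene length), SQSTM1 was the highest member at a mean of 68.6 over the 16 libraries. It was followed by TFE3 at 30.9, NBR1 at 22.3 and GABARAPL1 at 20.6, and the lowest were PIK3C3 at 2.79, TFEB at 2.47 and ATG10 at 2.04. Thus p62, the receptor for ubiquitin-tagged cargo, was by level the leading transcript of the set in all 4 groups, with group means of 62.8 to 74.3 RPKM. The counting left out fragments that fell on exons of 2 genes. For 9 members more than 10% of the exonic length lay in such overlaps, namely GABARAP (55.7%), ATG9A (34.9%), WIPI1 (28.1%), SQSTM1 (22.04%), ATG101 (19.2%), ATG7 (18.1%), BECN1 (17.1%), ATG4D (14.97%) and ATG5 (10.7%), so fragments there are missing from their values. MAP1LC3B and GABARAPL1 also have near-identical copies (MAP1LC3B2 and GABARAPL3) and fragments that matched both were not counted.

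XBP1 knockdown changed 21 of the 40 members, 10 lower and 11 higher (edgeR's quasi-likelihood test, Benjamini-Hochberg adjustment over 21021 genes, called where the adjusted p was below 0.05). That is 52.5% of the members, where 34.8% of all genes tested were called, 18.2% lower and 16.5% higher. All members had at least 130 counts in every library, whereas a tested gene needed only more than 5 counts in 1 library of each group. Shares called and median sizes of change, for members and for all genes, are therefore not on the same footing, here and below. Changes were small: the log2 fold changes ran from −0.70 (WIPI1) to 0.32 (ATG2B), and the median of their sizes was 0.13 against 0.20 over all genes. The median change with sign was 0.06 against 0.00 over all genes. MKC8866 changed 4 members, WIPI1, ATG13 and GABARAPL1 lower and OPTN higher, where 4.47% of 21045 genes were called, 3.11% lower and 1.36% higher. With the replicate number as a block, ULK1 and GABARAPL2 were called with MKC8866 as well. Over all genes that block raised the calls from 941 to 2746. The members' changes with MKC8866 ran from −0.65 (WIPI1) to 0.18 (OPTN), with a median size of 0.06 against 0.09 over all genes. In bulk RNA a lower value can come from less RNA per cell or from fewer cells carrying it, and these cannot be told apart.

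**Figure D1:**
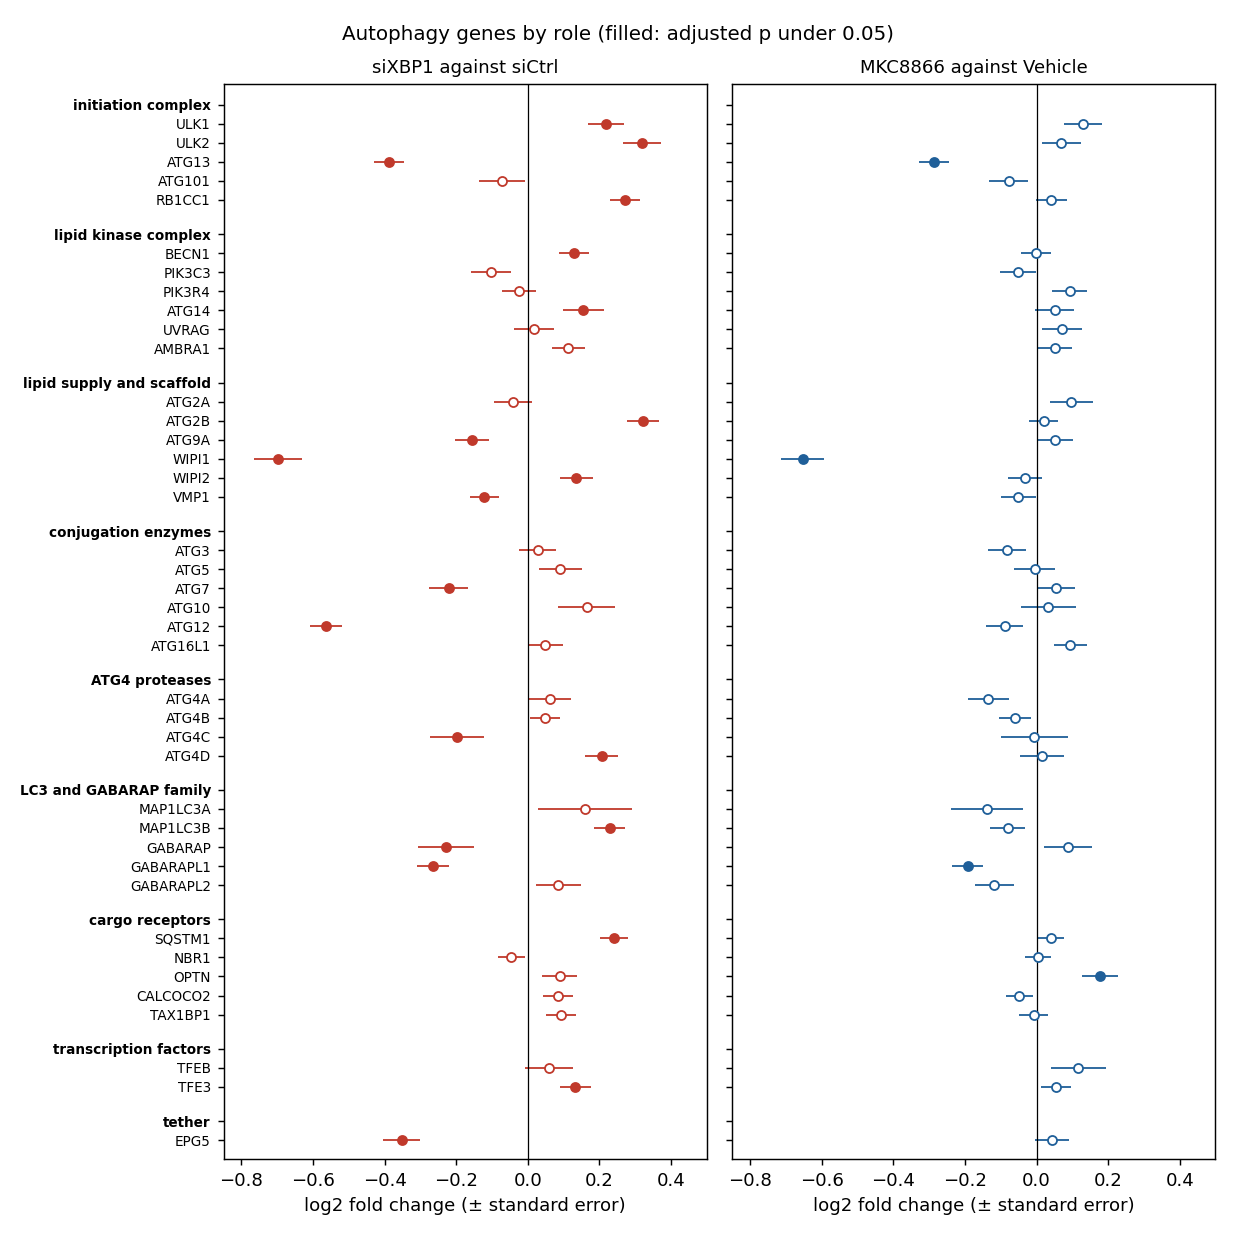
Log2 fold change with its standard error for the 40 autophagy genes, grouped by role, with siXBP1 against siCtrl on the left and MKC8866 against Vehicle on the right, from 4 libraries per group. Filled points passed an adjusted p of 0.05; 21 are filled on the left and 4 on the right, and WIPI1 lies farthest from 0 in both panels.

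WIPI1, ATG13 and GABARAPL1 were called lower in both comparisons. Gene positions below are those of the count table, on GRCh38. The number lower in both is 3 of 40 members (7.5%), and 2.48% of the 20357 genes tested in both were called lower in both. The 2 comparisons share no libraries, since each experiment had its own control.

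WIPI1 (ENSG00000070540, chr17:68420948-68457513, minus strand) binds phosphatidylinositol 3-phosphate on the forming autophagosome and marks the site of growth. In CPM, WIPI1 stood at 23.4, 20, 22.3 and 20.6 in the 4 siCtrl libraries and 13.9, 13, 13.6 and 12.8 in siXBP1, and at 23.2, 21.5, 23.0 and 22 in Vehicle and 14.3, 14.4, 14.6 and 13.7 in MKC8866. The groups of each experiment did not overlap, and the treated libraries of both experiments lay between 12.8 and 14.6 CPM. The log2 fold change was −0.70 ± 0.067 (SE, adjusted p = 2.41e-08) for siXBP1 and −0.65 ± 0.060 (SE, adjusted p = 4.29e-08) for MKC8866 by edgeR's quasi-likelihood test, so the level was 0.617 of siCtrl and 0.636 of Vehicle. The difference between the 2 responses was −0.04 ± 0.086 (SE, adjusted p = 0.79). ARSG, a sulfatase gene that shares exons with WIPI1, had a log2 fold change of −0.39 with siXBP1 and 0.04 with MKC8866. Its part in the WIPI1 counts was not tested.

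ATG13 (ENSG00000175224, chr11:46617527-46674818, plus strand) is the adaptor that holds the ULK kinase to its partners. ATG13 was counted at 116, 122, 124 and 116 CPM in siCtrl, at 93.6, 89.7, 93.6 and 87.8 in siXBP1, at 109, 107, 111 and 106 in Vehicle and at 87.4, 88.6, 92.3 and 86.0 in MKC8866. All 8 treated libraries lay below all 8 controls. The log2 fold change was −0.39 ± 0.042 (SE, adjusted p = 1.43e-07) with siXBP1 and −0.29 ± 0.041 (SE, adjusted p = 4.22e-05) with MKC8866, and the difference between the responses was −0.10 ± 0.056 (SE, adjusted p = 0.219). ATG13 was the one member of the initiation complex called lower. Its partners ULK1, ULK2 and RB1CC1 were called higher with siXBP1.

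GABARAPL1 (ENSG00000139112, chr12:10212458-10223130, plus strand) is a GABARAP family protein that is attached to the membrane and recruits cargo and fusion factors. The siCtrl libraries had 98.9, 90.5, 97.8 and 104 CPM of GABARAPL1, the siXBP1 libraries 80.0, 81.7, 84.2 and 80.0, the Vehicle libraries 82.9, 87.9, 82.4 and 82.1 and the MKC8866 libraries 70.6, 75.3, 75.0 and 72.0. The treated libraries were below the controls of their own experiment in both cases, although Vehicle as a group overlapped with siXBP1. The log2 fold change was −0.26 ± 0.046 (SE, adjusted p = 8.14e-05) with siXBP1 and −0.19 ± 0.044 (SE, adjusted p = 0.00765) with MKC8866, and the difference between the responses was −0.07 ± 0.062 (SE, adjusted p = 0.469).

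**Figure D2:**
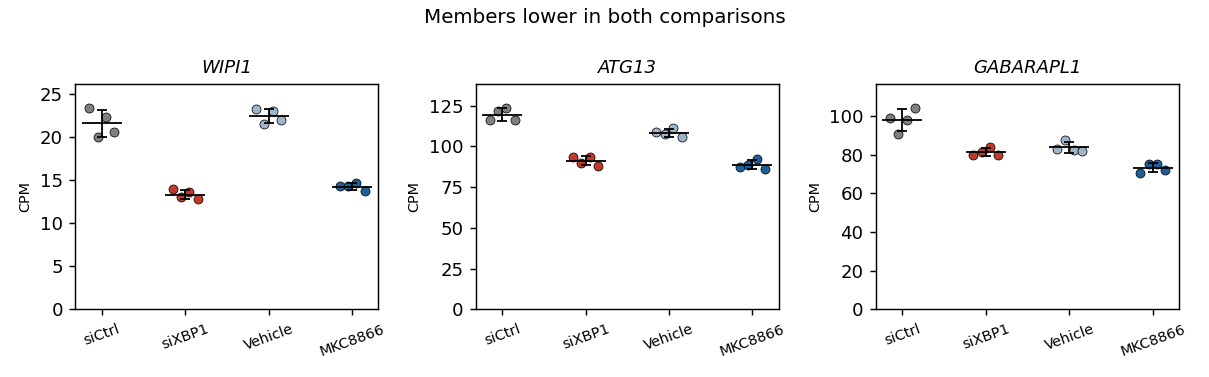
CPM of WIPI1, ATG13 and GABARAPL1 in each of the 16 libraries (points), with the mean (bar) and SD of the 4 libraries of each group; the axis starts at 0. In each panel siXBP1 lies below siCtrl and MKC8866 below Vehicle with no overlap.

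Because these 3 genes moved together, the 250 bases upstream of their transcription start are printed below, from RefSeq on GRCh38.p14, 5′ to 3′ on the gene's strand and ending at the base before the start. Capitals mark matches to a searched motif. The motifs were CACGTG (the core of the E-box read by TFEB and TFE3), ACGTG without CACGTG (a core of XBP1s-type elements), TGATGNAA (an ATF4-type element) and TGACGTCA, a palindrome that was added after these sequences were read. Each was searched on both strands in 300-base windows, which hold 250 bases before the start and 50 after it.
WIPI1, chr17:68457497-68457746, minus strand: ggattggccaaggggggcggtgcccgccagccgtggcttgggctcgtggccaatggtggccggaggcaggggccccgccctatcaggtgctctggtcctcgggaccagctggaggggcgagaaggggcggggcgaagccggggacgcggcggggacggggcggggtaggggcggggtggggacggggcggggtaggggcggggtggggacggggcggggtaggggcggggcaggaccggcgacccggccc
ATG13, chr11:46617303-46617552, plus strand: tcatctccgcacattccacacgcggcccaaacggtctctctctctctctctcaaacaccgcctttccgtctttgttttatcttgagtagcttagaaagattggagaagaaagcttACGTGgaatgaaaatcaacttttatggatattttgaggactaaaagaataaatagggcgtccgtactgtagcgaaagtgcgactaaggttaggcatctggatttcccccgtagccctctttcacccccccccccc
GABARAPL1, chr12:10212627-10212876, plus strand: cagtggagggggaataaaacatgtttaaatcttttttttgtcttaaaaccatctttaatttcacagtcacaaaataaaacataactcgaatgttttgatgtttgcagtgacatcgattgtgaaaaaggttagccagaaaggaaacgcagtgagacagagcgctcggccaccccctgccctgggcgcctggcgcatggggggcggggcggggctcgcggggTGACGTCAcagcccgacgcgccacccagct
The WIPI1 stretch held no match to these motifs and was 79.6% G and C, against a median of 58% over all windows. ATG13 held ACGTG with its first base 135 bases before the start, and its stretch was 47.2% G and C. GABARAPL1 held TGACGTCA with its first base 30 bases before the start, and its stretch was 51.6% G and C. The genes as bounded in the count table begin before the RefSeq starts, so the whole GABARAPL1 stretch and the ends of the ATG13 and WIPI1 stretches lie inside the counted genes.

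A window was found for 35 of the 40 members. ATG4D, EPG5, MAP1LC3A, RB1CC1 and UVRAG had none in the table. ACGTG without CACGTG was present for 11 members (31.4%): ATG3, ATG4A, ATG5, ATG9A, ATG10, ATG12, ATG13, CALCOCO2, GABARAPL2, VMP1 and WIPI2. It was present in 15.5% of all 35116 windows, but 8 members had more than 1 window, so the shares are not on the same footing. CACGTG was present for ATG3 and ATG14 and in 7.26% of windows. TGATGNAA matched no member and 3.62% of windows. TGACGTCA matched GABARAPL1 alone among the members and 1.85% of windows. A match describes letters only. The 3 members called lower with both treatments share none of these motifs.

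Of the other members of the initiation complex, the kinases ULK1 and ULK2 and the scaffold RB1CC1 (FIP200) rose with siXBP1. Levels of ULK2 were 35.7, 38.1, 36.4 and 36.9 CPM in siCtrl against 46.4, 42.7, 49.8 and 44.9 in siXBP1, and 35.1, 35.7, 35.8 and 33.5 in Vehicle against 39.5, 33.9, 37.0 and 36.3 in MKC8866. ULK2 had a log2 fold change of 0.32 ± 0.053 (SE, adjusted p = 4.45e-05) with siXBP1, where the groups did not overlap, and 0.07 ± 0.054 (SE, adjusted p = 0.628) with MKC8866. In CPM, RB1CC1 stood at 94.2, 88.3, 95.0 and 88.5 in the 4 siCtrl libraries and 111, 109, 114 and 108 in siXBP1, and at 88.9, 91.0, 91.3 and 93.1 in Vehicle and 88.1, 93.8, 92.1 and 100.01 in MKC8866. RB1CC1 followed the same order, with 0.27 ± 0.042 (SE, adjusted p = 2.13e-05) for siXBP1 and 0.04 ± 0.044 (SE, adjusted p = 0.745) for MKC8866. ULK1 had means of 102 ± 6.52 CPM in siCtrl, 119 ± 7.29 in siXBP1, 85.4 ± 4.83 in Vehicle and 93.2 ± 7.08 in MKC8866 (SD, n = 4). Its change was 0.22 ± 0.051 (SE, adjusted p = 0.00154) with siXBP1, with an overlap of the groups, and 0.13 ± 0.053 (SE, adjusted p = 0.228) with MKC8866. ULK1 was called with MKC8866 with the replicate number as a block and without MKC8866 replicate 2. The 2 responses differed for ULK2 by 0.25 ± 0.074 (SE, adjusted p = 0.0122) and for RB1CC1 by 0.23 ± 0.059 (SE, adjusted p = 0.00401), and for ULK1 the difference was 0.09 ± 0.078 (SE, adjusted p = 0.447). ATG101, which stabilises ATG13, was not called, with changes of −0.07 ± 0.064 (SE, adjusted p = 0.432) and −0.08 ± 0.054 (SE, adjusted p = 0.551).

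In the lipid kinase complex the 2 members called were both higher with siXBP1. BECN1 (Beclin 1, the scaffold) had means of 105 ± 3.88 CPM in siCtrl, 115 ± 4.20 in siXBP1, 105 ± 2.88 in Vehicle and 105 ± 4.26 in MKC8866 (SD, n = 4) and a log2 fold change of 0.13 ± 0.043 (SE, adjusted p = 0.0216) with siXBP1. The call was lost without siCtrl replicate 3 or siXBP1 replicate 4. CNTD1, which shares exons with BECN1, had a change of 1.00 with siXBP1, and its part in the BECN1 counts was not tested. ATG14, which directs the kinase to autophagosome formation, had a change of 0.16 ± 0.056 (SE, adjusted p = 0.0356), lost without siCtrl replicate 1 or 4 or siXBP1 replicate 1 or 4, and without the filter on low counts. The catalytic subunit PIK3C3 (VPS34) at −0.10, its partner PIK3R4 at −0.03, UVRAG at 0.02 and AMBRA1 at 0.11 were not called with siXBP1 in edgeR. AMBRA1 was called in 6 of 14 alternatives, DESeq2 among them. With MKC8866 the 6 genes of this complex lay between −0.05 and 0.09 and were not called.

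Lipid supply and membrane recruitment held changes in both directions. ATG2B (ENSG00000066739, chr14:96279202-96363870, minus strand) transfers lipid into the growing membrane. ATG2B was counted at 75.7, 86.2, 80.4 and 80.4 CPM in siCtrl, at 102, 98.6, 102 and 101 in siXBP1, at 78.6, 80.0, 78.8 and 80.8 in Vehicle and at 79.1, 81.9, 79.4 and 81.9 in MKC8866. The siXBP1 libraries were all above the other 12. Its log2 fold change was 0.32 ± 0.044 (SE, adjusted p = 4.64e-06) with siXBP1 and 0.02 ± 0.041 (SE, adjusted p = 0.891) with MKC8866, a difference of 0.30 ± 0.057 (SE, adjusted p = 0.00016). ATG2A, the other lipid transfer protein, had −0.04 with siXBP1 and 0.10 with MKC8866 and was called in neither.

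ATG9A (ENSG00000198925, chr2:219209772-219229717, minus strand) is the scramblase on the vesicles that seed the autophagosome. The siCtrl libraries had 80.5, 90.8, 89.6 and 82.2 CPM of ATG9A, the siXBP1 libraries 80.1, 77.4, 73.5 and 77.4, the Vehicle libraries 67.5, 60.8, 71.4 and 66.4 and the MKC8866 libraries 68.3, 66.1, 72.0 and 68.9. The highest siXBP1 library (80.1) was just below the lowest siCtrl library (80.5), and MKC8866 overlapped with Vehicle. The change was −0.15 ± 0.047 (SE, adjusted p = 0.0135) with siXBP1 and 0.05 ± 0.049 (SE, adjusted p = 0.706) with MKC8866, a difference of −0.20 ± 0.070 (SE, adjusted p = 0.0333). The knockdown call was lost without siCtrl replicate 2 or 3 or siXBP1 replicate 3, and the call of the difference without those or without Vehicle replicate 2 or 4 or MKC8866 replicate 3 or 4. WIPI2, which recruits ATG16L1, went the opposite way to WIPI1 with siXBP1. Levels of WIPI2 were 56.7, 54.4, 60.4 and 57.2 CPM in siCtrl against 62.9, 61.7, 64.6 and 61.9 in siXBP1, and 54.2, 51.5, 56.8 and 55.7 in Vehicle against 54.8, 51.8, 54.8 and 51.8 in MKC8866. Its change was 0.14 ± 0.045 (SE, adjusted p = 0.0234) with siXBP1, lost without siXBP1 replicate 3, and −0.03 ± 0.047 (SE, adjusted p = 0.834) with MKC8866. The difference of 0.17 ± 0.063 (SE, adjusted p = 0.0499) was lost when any 1 of 12 libraries was left out, that is any but siCtrl replicate 3, Vehicle replicate 2 and MKC8866 replicates 1 and 3, and without the filter on low counts. VMP1, an ER membrane scramblase, had −0.12 ± 0.041 (SE, adjusted p = 0.023) with siXBP1, lost without siCtrl replicate 1 or 3 or siXBP1 replicate 1 or 2 and without the filter on low counts. It had −0.05 with MKC8866.

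Among the 6 conjugation enzymes, siXBP1 lowered ATG12 and ATG7. ATG12 (ENSG00000145782, chr5:115828200-115841858, minus strand) is the ubiquitin-like protein that is joined to ATG5. In CPM, ATG12 stood at 67.8, 66.0, 63.3 and 64.2 in the 4 siCtrl libraries and 42.6, 45.9, 44.3 and 43.9 in siXBP1, and at 63.4, 65.7, 59.0 and 61.6 in Vehicle and 55.0, 63.9, 57.7 and 57.8 in MKC8866. The siXBP1 libraries were clear of the other 12, whereas MKC8866 overlapped with Vehicle. The change was −0.56 ± 0.046 (SE, adjusted p = 1.41e-09) with siXBP1, to 0.676 of siCtrl, and −0.09 ± 0.051 (SE, adjusted p = 0.442) with MKC8866. The difference between the responses, −0.47 ± 0.068 (SE, adjusted p = 3.67e-06), was the largest of any member. ATG7 (ENSG00000197548, chr3:11272309-11557665, plus strand) is the E1-like enzyme that activates ATG12 and the LC3 proteins. ATG7 was counted at 33.8, 34.2, 37.9 and 38.0 CPM in siCtrl, at 31.2, 29.7, 31.4 and 31.2 in siXBP1, at 33.3, 32.1, 34.8 and 31.4 in Vehicle and at 35.9, 32.6, 34.2 and 33.6 in MKC8866. Its change was −0.22 ± 0.054 (SE, adjusted p = 0.00266) with siXBP1 and 0.05 ± 0.053 (SE, adjusted p = 0.724) with MKC8866, a difference of −0.27 ± 0.074 (SE, adjusted p = 0.00692). VGLL4, which shares exons with ATG7, had 0.26 with siXBP1, and its part in the ATG7 counts was not tested. The E2-like enzymes ATG3 (0.03) and ATG10 (0.17), the ATG12 partner ATG5 (0.09) and ATG16L1 (0.05) were not called with siXBP1. With MKC8866 the 6 enzymes lay between −0.09 and 0.09 and were not called. With MKC8866 the MKC8866 libraries of ATG16L1 lay above all Vehicle libraries, with 45.9 ± 1.18 against 43.1 ± 0.419 CPM (SD, n = 4), but its adjusted p in edgeR was 0.338.

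The ATG4 proteases, which trim LC3 proteins before and after use, split. ATG4D had means of 38.9 ± 0.915 CPM in siCtrl, 44.8 ± 1.28 in siXBP1, 39.1 ± 2.45 in Vehicle and 39.5 ± 3.66 in MKC8866 (SD, n = 4) and a change of 0.21 ± 0.047 (SE, adjusted p = 0.00132) with siXBP1. ATG4C, the member with the lowest counts of the 4, had −0.20 ± 0.075 (SE, adjusted p = 0.047), and of 14 other settings its call was kept in 1 alone, without siCtrl replicate 4. ATG4A (0.06) and ATG4B (0.05) were not called. With MKC8866 the 4 lay between −0.13 and 0.02 and were not called.

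The LC3 and GABARAP family moved in opposite directions within itself with siXBP1. MAP1LC3B (ENSG00000140941, chr16:87383995-87404779, plus strand) encodes LC3B, the protein most often used to mark autophagosomes, and was called higher with siXBP1. The siCtrl libraries had 91.4, 84.3, 88.3 and 91.6 CPM of MAP1LC3B, the siXBP1 libraries 99.7, 104, 108 and 105, the Vehicle libraries 85.5, 94.8, 86.2 and 96.4 and the MKC8866 libraries 80.8, 91.6, 85.4 and 84.9. The siXBP1 libraries were above the other 12. Its change was 0.23 ± 0.043 (SE, adjusted p = 0.000218) with siXBP1 and −0.08 ± 0.049 (SE, adjusted p = 0.485) with MKC8866, a difference of 0.31 ± 0.066 (SE, adjusted p = 0.000733). Its copy MAP1LC3B2 had changes of 0.22 with siXBP1 and −0.17 with MKC8866. GABARAP (ENSG00000170296, chr17:7240014-7242770, minus strand) was called lower with siXBP1. Levels of GABARAP were 43.8, 48.9, 35.8 and 45.3 CPM in siCtrl against 38.8, 40.4, 31.6 and 37.4 in siXBP1, and 40.1, 39.9, 36.7 and 43.3 in Vehicle against 37.4, 42.9, 40.6 and 48.8 in MKC8866. The groups overlapped, and replicate 3 was the lowest in both siCtrl and siXBP1. Its change was −0.23 ± 0.078 (SE, adjusted p = 0.0256) with siXBP1, lost without siCtrl replicate 1, 2 or 4 or siXBP1 replicate 3 or 4, and 0.09 ± 0.067 (SE, adjusted p = 0.611) with MKC8866. The difference of −0.31 ± 0.115 (SE, adjusted p = 0.048) was lost when any 1 of 10 libraries was left out, that is any but siCtrl replicate 3, siXBP1 replicates 1 and 2, Vehicle replicate 4 and MKC8866 replicates 1 and 3, and with DESeq2's size factors. MAP1LC3A had 0.16 ± 0.132 (SE, adjusted p = 0.395) with siXBP1 and GABARAPL2 had 0.09 ± 0.062 (SE, adjusted p = 0.323). With MKC8866 they had −0.14 and −0.12. Neither gene was called in these fits. MAP1LC3A was called with siXBP1 without siCtrl replicate 2, at an adjusted p of 0.0165 in edgeR, in a range of 0.0165 to 0.693 over the 14 alternatives. GABARAPL2 was called with MKC8866 with the replicate number as a block, at an adjusted p of 0.0308 in edgeR.

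Per length, the 5 family members summed to 77.8 ± 3.44 RPKM in siCtrl, 75.1 ± 1.47 in siXBP1, 74.6 ± 2.88 in Vehicle and 70.5 ± 2.54 in MKC8866 (SD, n = 4). The sum in siXBP1 lay within the range of siCtrl, which was 73.5 to 81.0. MAP1LC3B made up 20.7% to 22.6% of the sum in siCtrl and 25.3% to 26.8% in siXBP1, with no overlap. In Vehicle it was 21.8% to 23.8% and in MKC8866 22.4% to 23.6%. GABARAPL1 made up 28.9% to 32.6% in siCtrl and 26.0% to 27.2% in siXBP1, and 26.4% to 28.5% in Vehicle and 24.7% to 26.0% in MKC8866, again with no overlap. The 3 GABARAP members together were 74.8% ± 0.702 in siCtrl and 69.7% ± 0.761 in siXBP1, and 72.4% ± 0.481 in Vehicle and 72.6% ± 0.740 in MKC8866 (SD, n = 4). These shares are descriptions and carry the loss of overlapping fragments for GABARAP.

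**Figure D3:**
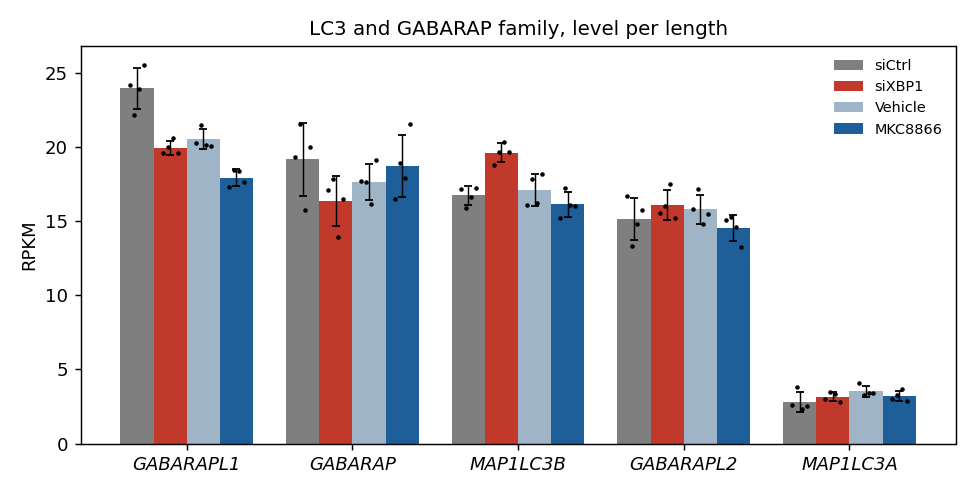
Level per length (RPKM) of the 5 LC3 and GABARAP genes in each group; bars are means of 4 libraries, lines are the SD and dots are single libraries. GABARAPL1 is lower in siXBP1 than in siCtrl and in MKC8866 than in Vehicle, MAP1LC3B is higher in siXBP1 alone, and MAP1LC3A is the lowest gene in every group.

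Of the 5 cargo receptors, SQSTM1 and OPTN were each called in 1 comparison. In CPM, SQSTM1 stood at 452, 500.4, 483 and 488 in the 4 siCtrl libraries and 562, 576, 570.03 and 566 in siXBP1, and at 524, 497, 526 and 525 in Vehicle and 542, 509.9, 547 and 528 in MKC8866. The siXBP1 libraries of SQSTM1 were above the other 12. Its change was 0.24 ± 0.039 (SE, adjusted p = 3.07e-05) with siXBP1 and 0.04 ± 0.036 (SE, adjusted p = 0.687) with MKC8866, a difference of 0.20 ± 0.052 (SE, adjusted p = 0.00415). MGAT4B, which shares exons with SQSTM1, had 0.23 with siXBP1 and 0.46 with MKC8866, and its part in the SQSTM1 counts was not tested. OPTN (ENSG00000123240, chr10:13099449-13138308, plus strand) is a receptor for mitochondria and bacteria. OPTN was counted at 33.1, 31.5, 31.7 and 33.0 CPM in siCtrl, at 34.5, 35.3, 34.9 and 33.0 in siXBP1, at 30.2, 30.3, 31.3 and 30.5 in Vehicle and at 35.4, 33.7, 34.4 and 34.5 in MKC8866. All MKC8866 libraries were above all Vehicle libraries. Its change was 0.18 ± 0.049 (SE, adjusted p = 0.0391) with MKC8866, lost when any 1 of 7 libraries was left out, that is any but MKC8866 replicate 2, and without the filter on low counts. With siXBP1 it was 0.09 ± 0.050 (SE, adjusted p = 0.184). NBR1 (−0.05), CALCOCO2 (0.08) and TAX1BP1 (0.09) were not called with siXBP1, nor with MKC8866, where they lay between −0.05 and 0.00. TAX1BP1 was called with siXBP1 in 2 of 14 alternatives, with at least 10 counts in every library and without siCtrl replicate 4.

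TFEB and TFE3 are transcription factors that switch on autophagy and lysosome genes. TFE3 had means of 131 ± 5.46 CPM in siCtrl, 144 ± 6.78 in siXBP1, 125 ± 3.30 in Vehicle and 130.1 ± 5.49 in MKC8866 (SD, n = 4) and a change of 0.13 ± 0.044 (SE, adjusted p = 0.0214) with siXBP1, lost without siCtrl replicate 1 or 3 or siXBP1 replicate 1 or 4. TFEB, with means of 14.3 ± 0.513 CPM in siCtrl, 14.9 ± 0.912 in siXBP1, 12.8 ± 1.09 in Vehicle and 13.8 ± 1.16 in MKC8866 (SD, n = 4), was not called in either comparison, with changes of 0.06 and 0.12. With MKC8866 TFE3 had 0.06 and was not called. EPG5 (ENSG00000152223, chr18:45847609-45967274, minus strand), a tether between autophagosome and lysosome, was called lower with siXBP1. The siCtrl libraries had 52.3, 58.4, 54.0 and 54.3 CPM of EPG5, the siXBP1 libraries 46.4, 41.8, 42.1 and 41.3, the Vehicle libraries 44.7, 48.7, 48.5 and 46.6 and the MKC8866 libraries 49.4, 47.1, 47.4 and 50.1. Its siXBP1 libraries were below siCtrl and, as a group, overlapped with Vehicle. The change was −0.35 ± 0.051 (SE, adjusted p = 9.24e-06) with siXBP1 and 0.04 ± 0.048 (SE, adjusted p = 0.753) with MKC8866, a difference of −0.39 ± 0.068 (SE, adjusted p = 6.11e-05).

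Taking all members, 18 did not overlap between siXBP1 and siCtrl (9 lower, 9 higher), where 32.8% of all genes tested did not overlap. For MKC8866 the number was 5 (3 lower, and ATG16L1 and OPTN higher), where 9.27% did not. The difference between the 2 responses, tested as an interaction over 16 libraries, was called for 11 members, in 5 of which siXBP1 lay below MKC8866 (ATG12, EPG5, GABARAP, ATG7 and ATG9A) and in 6 above it (MAP1LC3B, ATG2B, ULK2, RB1CC1, SQSTM1 and WIPI2). Over all genes tested 23.3% were called, 12.7% below and 10.6% above, so the share of 27.5% among the members was near the background in this fit. With the replicate number as a block, 16 of the 40 members and 5642 of 20357 genes were called. The treatments differ in agent, length of treatment and experiment, and these cannot be told apart.

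**Figure D4:**
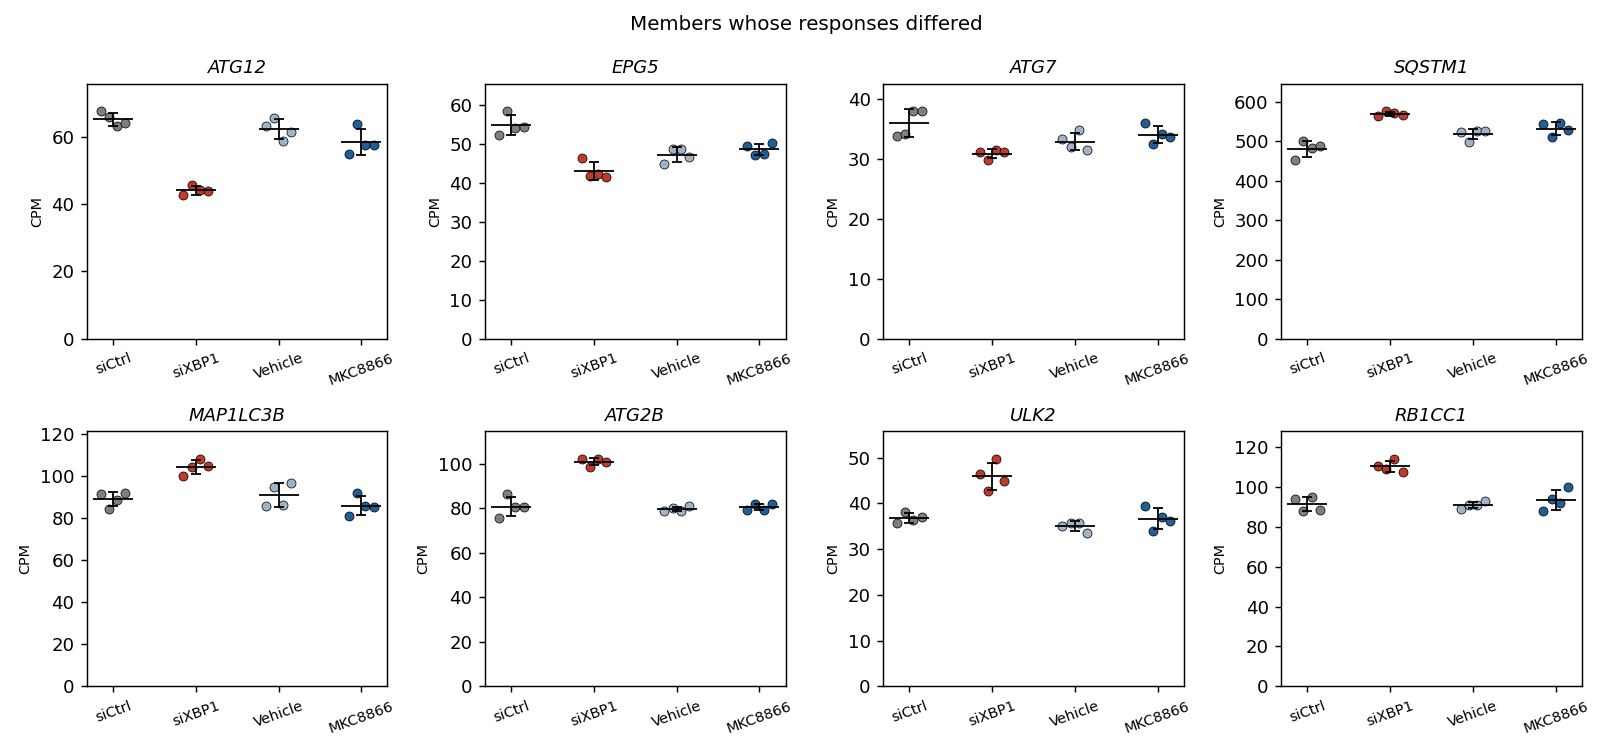
CPM in each of the 16 libraries for 8 of the 11 members whose 2 responses differed, with the mean (bar) and SD of each group of 4; each axis starts at 0. ATG12, EPG5 and ATG7 are lower in siXBP1 than in siCtrl and SQSTM1, MAP1LC3B, ATG2B, ULK2 and RB1CC1 are higher, while MKC8866 overlaps with Vehicle in all 8.

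A list of 20 other autophagy genes had 18 tested. With siXBP1 8 of them were lower and 3 higher, and with MKC8866 3 were lower. Over all genes 18.2% were lower and 16.5% higher with siXBP1, and 3.11% were lower with MKC8866. The median change of the list was −0.07 with siXBP1 and −0.05 with MKC8866, against 0.00 over all genes in both. The 3 lower with MKC8866 were TECPR1 (−0.44 ± 0.064 SE, adjusted p = 4.68e-05), a lysosomal protein that binds the ATG12 and ATG5 pair, NRBF2 (−0.27 ± 0.052 SE, adjusted p = 0.00122), a partner of the Beclin 1 complex, and WDR45 (−0.22 ± 0.047 SE, adjusted p = 0.00502), a WIPI family protein. TECPR1 and NRBF2 were lower with siXBP1 as well, with −0.69 ± 0.050 (SE, adjusted p = 1.98e-10) and −0.32 ± 0.046 (SE, adjusted p = 9.79e-06). The other genes with the largest changes in siXBP1 were the mitophagy receptors BNIP3L (−0.88 ± 0.043 SE, adjusted p = 2.69e-13) and BNIP3 (−0.65 ± 0.042 SE, adjusted p = 3.32e-11) and the adaptor TOLLIP (−0.36 ± 0.047 SE, adjusted p = 2.77e-06). With MKC8866, BNIP3L had 0.01 and BNIP3 −0.02, and the 2 responses differed by −0.89 ± 0.060 (SE, adjusted p = 1.68e-12) and −0.63 ± 0.067 (SE, adjusted p = 2.13e-08).

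Of 11 genes for fusion with the lysosome, siXBP1 lowered RAB7A and YKT6, where 18.2% of all genes were lower, and the median change was −0.08. RAB7A, the small GTPase of late endosomes and lysosomes, had means of 309 ± 5.93 CPM in siCtrl, 135 ± 3.13 in siXBP1, 306 ± 7.21 in Vehicle and 305 ± 5.79 in MKC8866 (SD, n = 4). Its change was −1.19 ± 0.038 (SE, adjusted p = 2.30e-16) with siXBP1 and −0.0023 ± 0.036 (SE, adjusted p = 0.989) with MKC8866, a difference of −1.19 ± 0.049 (SE, adjusted p = 2.68e-17). YKT6, a SNARE that can drive the fusion step, was lower with both treatments, at −0.22 ± 0.041 (SE, adjusted p = 0.000164) and −0.21 ± 0.040 (SE, adjusted p = 0.00176), with a difference of −0.02 ± 0.055 (SE, adjusted p = 0.877).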

How the data were processed

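RNA from 16 LNCaP libraries, 4 per group, was sequenced by the study from a stranded paired-end kit. The authors deposited unnormalised counts of fragments per gene, which they made by aligning reads to GRCh38 with STAR 2.5.2a and counting with featureCounts 1.5.0 on an Ensembl annotation, per the file headers without regard to strand and without multimapping or ambiguous fragments. So a gene and an overlapping antisense gene cannot be told apart, and fragments shared by 2 genes are lost.

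From these counts, edgeR 4.0.16 (TMM normalization, quasi-likelihood test, two-sided, Benjamini-Hochberg over all genes tested, called below 0.05) compared siXBP1 with siCtrl and MKC8866 with Vehicle in separate fits, and the difference of the 2 responses in 1 fit of 16 libraries. A gene was tested where each group had 1 or more libraries above 5 counts. Standard errors (SE) are on the log2 scale. CPM and RPKM used TMM-scaled library totals over 16 libraries and the gene length in the table. DESeq2 1.42.0, other size factors, other filters and thresholds, the replicate number as a block, and each library left out were the alternatives. Leaving out members that share over 10% of their exons was chosen after seeing the data. The edgeR fits with their main settings were tested on simulated counts, and the alternatives were not. Spread between libraries was 5.4% in the knockdown and 4.97% in the inhibitor fit, as a biological coefficient of variation. No 2 libraries of a group agreed within sampling noise. Symbols came from the annotation supplied here and matched 56948 of 58051 genes.

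The members, gene lists and tests were chosen with earlier results of these data known. Every member is named. Values in all libraries are given for members called in both comparisons or in the difference, and for the 6 largest called changes per comparison. From each further list up to 5 called genes per comparison are named with their log2 fold changes. Promoters came from RefSeq on GRCh38.p14.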

Additional observations from a re-analysis of the deposited data

Results flagged for a closer look

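In 8 of 160 groups of 4 libraries, 1 library stood apart from the other 3 by Dixon's criterion at the 95% level, which chance flags in about 1 of 20 groups. ULK1 was 82.6 CPM in MKC8866 replicate 2 against 96.4 to 97.4 in the others. SQSTM1 was 497 CPM in Vehicle replicate 2 against 524 to 526, and GABARAPL1 was 87.9 in the same library against 82.1 to 82.9. CALCOCO2 was 152 CPM in siCtrl replicate 2 against 166 to 169, and MAP1LC3A was 6.77 in that library against 4.14 to 4.54. ATG7 was 29.7 CPM in siXBP1 replicate 2 against 31.2 to 31.4. ATG2A was 56.7 CPM in siXBP1 replicate 1 against 48.6 to 49.6, and EPG5 was 46.4 in that library against 41.3 to 42.1. The calls of ATG7 and EPG5 with siXBP1, of GABARAPL1 in both comparisons and of SQSTM1 with siXBP1 held when each library in turn was left out. ULK1 was called with MKC8866 when MKC8866 replicate 2 was left out.

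The response to siXBP1 differed from the response to MKC8866 for 11 members by the interaction test in edgeR over 16 libraries. On the log2 scale siXBP1 minus MKC8866 was −0.47 for ATG12, −0.39 for EPG5, −0.31 for GABARAP, −0.27 for ATG7 and −0.20 for ATG9A. It was 0.31 for MAP1LC3B, 0.30 for ATG2B, 0.25 for ULK2, 0.23 for RB1CC1, 0.20 for SQSTM1 and 0.17 for WIPI2. Agent, length of treatment and experiment cannot be told apart in these values.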

How the results depend on the processing

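Of the 21 members called with siXBP1, 13 were called under each of 14 alternatives to the test, filter, normalization or libraries, as were 3 of the 4 called with MKC8866. Of the 11 called in the difference of the responses, 8 were called under each of 21. No called change turned its direction. At an adjusted p under 0.01 the number was 13 with siXBP1 and 7 for the difference, and at an unadjusted p under 0.05 it was 7 with MKC8866. Without the 9 members that share over 10% of their exons, WIPI1 among them, 14 of 31 members were called with siXBP1 (6 lower, 8 higher). Of the same 31, 7 differed between the responses. With 1 library left out, 16 to 20 members were called with siXBP1, 3 to 5 with MKC8866 and 8 to 12 for the difference. Uncalled changes near 0 turned their sign with 1 library left out, and the cause was not tested. With siXBP1 these ranged over PIK3R4 −0.0384 to 0.00151, ATG3 −0.0211 to 0.0600 and UVRAG −0.00508 to 0.0532 on the log2 scale. With MKC8866 they ranged over ATG4C −0.0995 to 0.0859, ATG4D −0.0392 to 0.0564, ATG5 −0.0236 to 0.00640, ATG10 −0.00672 to 0.0846, TAX1BP1 −0.0326 to 0.00996, BECN1 −0.0317 to 0.0149 and NBR1 −0.0111 to 0.0139. For the difference they ranged over WIPI1 −0.0742 to 0.000913 and ATG101 −0.0369 to 0.0721. With MKC8866, BECN1 also turned to 0.000742 without the filter on low counts and NBR1 to −8.13e-06 with at least 10 counts in every library.

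Replicate numbers are shared across groups, but the labels do not say that a number marks a batch. Deviations of same-numbered libraries correlated at 0.008 to 0.061 in the knockdown experiment, where 0 of 4 controls correlated best with their own number. In the inhibitor experiment they correlated at 0.081 to 0.328, against −0.216 to 0.138 for other pairs. There 3 of 4 controls correlated best with their own number. Whether the inhibitor libraries were paired by number is not settled by these values. The main fits had no block, and the calls with MKC8866 rest on that choice. With the replicate number as a block, 19 members were called with siXBP1, 6 with MKC8866 and 16 for the difference, and the members' median change was 0.0598 with siXBP1 and 0.00904 with MKC8866. With the block ATG14 and ATG4C were no longer called with siXBP1, ULK1 and GABARAPL2 were called with MKC8866 as well, and BECN1, ATG4A, ATG4D, GABARAPL2 and CALCOCO2 were called in the difference as well. Over all genes the block raised the calls from 7311 to 7323 with siXBP1, from 941 to 2746 with MKC8866 and from 4735 to 5642 for the difference. Depth limits the members with few counts most, such as MAP1LC3A with 130 counts in its lowest library.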

Other observations

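Upstream of the core machinery, 25 genes of AMPK, mTORC1 and nutrient sensing were measured, of which 9 were lower and 6 higher with siXBP1, where 18.2% of all genes were lower and 16.5% higher, with a median change of 0.00 on the log2 scale. SESN1, a sestrin that restrains mTORC1, had means of 39.3 ± 2.10 CPM in siCtrl, 79.8 ± 2.42 in siXBP1, 57.7 ± 3.33 in Vehicle and 56.7 ± 1.72 in MKC8866 (SD, n = 4). It rose by 1.02 ± 0.049 (SE, adjusted p = 1.83e-13) with siXBP1, and the difference from the response to MKC8866 was 1.05 ± 0.068 (SE, adjusted p = 5.41e-13). SESN2 was also higher with siXBP1 (0.34 ± 0.040 SE, adjusted p = 6.85e-07). DEPTOR, an mTOR inhibitor, was lower (−0.41 ± 0.075 SE, adjusted p = 0.000174), as were the AMPK subunits PRKAG2 (−0.33 ± 0.065 SE, adjusted p = 0.000325) and PRKAA1 (−0.29 ± 0.036 SE, adjusted p = 1.46e-06). With MKC8866, edgeR called 0 of the 25 and DESeq2 0, where edgeR called 4.47% of all genes. Of the 25, 3 had an unadjusted p under 0.05 in edgeR (PRKAB2, PRKAG1 and SESN2).

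Of 13 matched genes for MITF and lysosomal proteins, 4 were lower and 3 higher with siXBP1, against the same shares over all genes, with a median of −0.02. The lysosomal membrane proteins LAMP1 (0.38 ± 0.042 SE, adjusted p = 2.50e-07) and LAMP2 (0.30 ± 0.040 SE, adjusted p = 2.11e-06) and the calcium channel MCOLN1 (0.30 ± 0.066 SE, adjusted p = 0.00108) rose. The enzyme GLA (−0.38 ± 0.074 SE, adjusted p = 0.000287) and the proton pump subunit ATP6V0D1 (−0.18 ± 0.040 SE, adjusted p = 0.00077) fell. With MKC8866, edgeR and DESeq2 called 0 of the 13, where edgeR called 4.47% of all genes. Of the 13, 1 (ATP6V0D1) had an unadjusted p under 0.05 in edgeR. The 2 responses differed for LAMP1 by 0.31 ± 0.057 (SE, adjusted p = 0.000139) and for LAMP2 by 0.30 ± 0.054 (SE, adjusted p = 0.000122).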
